A study of Mus musculus with 5 samples.

Results

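The regions described here are the E2F1 binding peaks of mouse embryonic fibroblasts that touched no peak called for E2F3A or E2F3B. A peak of the E2F1 list was kept when it overlapped no peak of either E2F3 list by 1 bp or more. This gave 2082 regions out of 3787 E2F1 peaks (55.0%, 95% Wilson interval 53.4 to 56.6) and out of 10489 peaks in the 3 lists together. They are called E2F1-only peaks below, and the other 1705 E2F1 peaks are called shared. Of the shared peaks, 1007 overlapped the E2F3B list alone, 639 overlapped both E2F3 lists and 59 overlapped the E2F3A list alone. The regions were thus chosen by the called positions of all 3 lists, so the size of the set is a description and not a test.

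Each list came from 1 chromatin immunoprecipitation sequencing (ChIP-seq) library. In this assay, DNA bound by a protein is pulled down with an antibody and sequenced, and a peak is a stretch where a caller found more reads than it required. The cells were asynchronously growing fibroblasts with a mixed strain background, from FVB/NT, 129S1/Svlmj and C57BL/6NT, and they stably overexpressed E2F1, E2F3A or E2F3B. The E2F1 library was made with an anti-E2F1 antibody and the E2F3A and E2F3B libraries with 1 anti-E2F3 antibody. The protein, the antibody, the overexpressing line and the library therefore cannot be told apart as sources of a difference. The same antibody served both E2F3 lines, so their lists are named for the overexpressed isoform. Which isoform was bound at a peak was not tested, and an isoform named below stands for its list. The labels do not say what drives the overexpression or whether each line is a clone. The other 2 samples of the series, with the genotypes 1-/- and 3-/-, were not analysed here.

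E2F proteins are transcription factors that bind short GC-rich DNA motifs as dimers with a DP partner. In proliferating cells E2F1 and E2F3 act mainly as activators of genes for DNA replication and entry into S phase. Binding by the retinoblastoma protein restrains this activity. E2F1 is also known for its link to apoptosis and the response to DNA damage. E2F3A and E2F3B are made from separate promoters of the same gene, share their DNA-binding domain and differ at the N-terminus.

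The lists hold positions and no score, summit or read count, and the sequencing depth is unknown. A region is E2F1-only when neither E2F3 library passed its caller's threshold there, which does not show that E2F3 was absent. Because a single library stood for each protein, no difference between peak classes could be tested over samples, and the intervals cover counting error of peaks only. Peak numbers run to 3803 in the E2F1 list, 2008 in the E2F3A list and 4716 in the E2F3B list, and 16, 10 and 12 of those numbers were not among the peaks analysed here. An E2F3 peak among them could turn an E2F1-only peak into a shared one. Genes and sequence at these mm9 positions were not analysed here.

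E2F1-only peaks were narrower than shared ones and varied less in width. Their median width was 567 bp (95% order-statistic interval 561 to 573), with quartiles at 493 and 640 bp and a range from 249 to 2011 bp. Shared E2F1 peaks had a median of 699 bp (683 to 712), with quartiles at 562 and 871 bp. The middle 50% of E2F1-only peaks thus spanned 147 bp and that of shared peaks 309 bp. A wide peak meets a 1 bp overlap more easily, so the width is tied to the rule and no test was made. Among the shared peaks, those that overlapped both isoforms were the widest (median 748 bp, interval 721 to 768), and those that overlapped E2F3B alone (676 bp, 660 to 697) or E2F3A alone (667 bp, 590 to 724) lay between them and the E2F1-only peaks. Each of these medians had an interval above that of the E2F1-only peaks.

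The narrow spread shows in the counts by width. Peaks of 500 to 599 bp made up 36.6% of the E2F1-only peaks (761) and 16.1% of the shared peaks. Peaks of 1000 bp or more made up 1.87% of the E2F1-only peaks (39) and 12.8% of the shared ones (219). Of all E2F1 peaks in a width class, the E2F1-only share was 73.5% (70.8 to 76.1) at 500 to 599 bp and 15.1% (11.3 to 19.997) at 1000 bp or more. It did not fall steadily with width, since it was 63.3% (57.1 to 69.1) among the 248 peaks below 400 bp. Compared with the peaks called in 1 E2F3 list alone, E2F1-only peaks were wider: the 1100 E2F3A-only peaks had a median of 331.5 bp and the 2784 E2F3B-only peaks one of 337 bp. The shared E2F1 peaks, with a median of 699 bp, were also wider than both of these classes, so this difference does not mark the E2F1-only peaks.

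**Figure D1:**
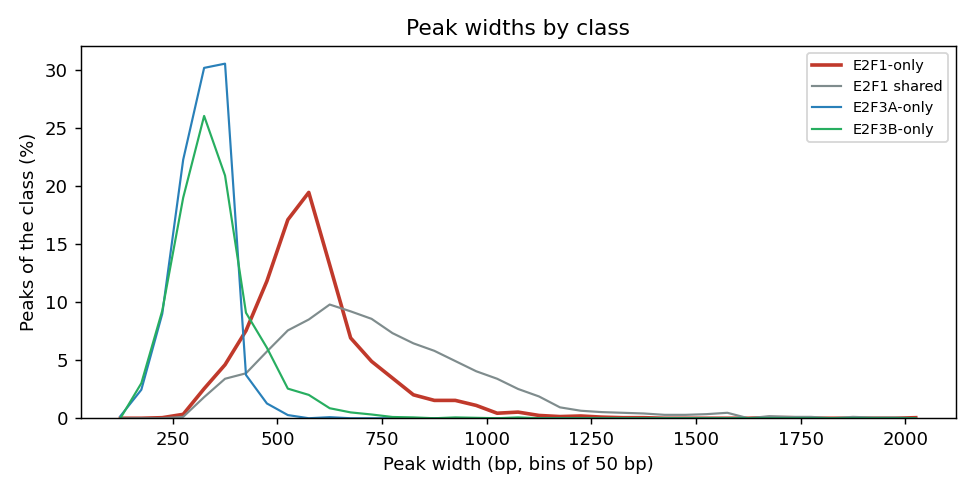
Peak width in bp (horizontal axis, bins of 50 bp) against the percent of peaks of a class (vertical axis) for E2F1-only, shared E2F1, E2F3A-only and E2F3B-only peaks. The E2F1-only curve peaks between 500 and 600 bp and is narrower than that of shared E2F1 peaks, while both E2F3 classes lie to its left.

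The widest E2F1-only peaks differed in how close other peaks lay. The widest, on chromosome 9 from 3021919 to 3023929 (2011 bp), was also the most isolated, 4.53 Mb from the nearest E2F3A peak and 4.98 Mb from the nearest E2F3B peak. The first sequenced bases of chromosome 9 in mm9 are known to hold satellite repeats, and no repeat annotation was used here. The next, on chromosome 19 from 8893116 to 8894858 (1743 bp), lay 61.2 kb from E2F3A and 61.4 kb from E2F3B. The third, on chromosome 6 from 51220559 to 51222228 (1670 bp), stopped 21 bp short of an E2F3A peak and was 90.4 kb from E2F3B. A peak on chromosome 12 from 81213675 to 81215044 (1370 bp) lay 146 kb from E2F3B and 234 kb from E2F3A. The peak on chromosome 10 from 59341809 to 59343153 (1345 bp) lay 19.3 kb from E2F3B and 176 kb from E2F3A. Great width among E2F1-only peaks was thus found both beside E2F3 peaks and megabases away from them.

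The narrowest E2F1-only peaks were 249 to 290 bp long. Chromosome 9 held 3 of them, from 63525531 to 63525779 (249 bp), from 119146402 to 119146676 (275 bp) and from 107790268 to 107790547 (280 bp). Chromosome 15 held 1, from 52331856 to 52332126 (271 bp), and chromosome 10 held 1, from 7400778 to 7401067 (290 bp). None of these 5 came within 10 kb of any other peak. Their gaps to the nearest peak of any list ran from 12.9 kb for the chromosome 10 peak to 84.3 kb for the chromosome 9 peak from 119146402. Of all E2F1-only peaks, only 323 (15.5%, interval 14.0 to 17.1) had any other peak within 10 kb. The lack of a close neighbour therefore does not set the narrowest peaks apart.

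E2F1-only peaks lay on all 20 chromosomes, the 19 autosomes and X, but unevenly. Over the stretches spanned by peaks there were 0.818 E2F1-only peaks per Mb, with a median over chromosomes of 0.815. Chromosome 15 was the densest, with 207 peaks or 2.07 per Mb, followed by chromosome 10 with 204 peaks or 1.61 per Mb and chromosome 17 with 127 peaks or 1.38 per Mb. The X chromosome was the sparsest, with 41 peaks or 0.257 per Mb, and chromosome 1 had 73 peaks or 0.383 per Mb. The density on chromosome 15 was above that of every other class on any chromosome. Shared E2F1 peaks were densest on chromosome 17 (1.36 per Mb) and E2F3B-only peaks on chromosome 8 (1.70 per Mb). E2F3A-only peaks had their highest density on chromosome 15 as well (0.961 per Mb).

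**Figure D2:**
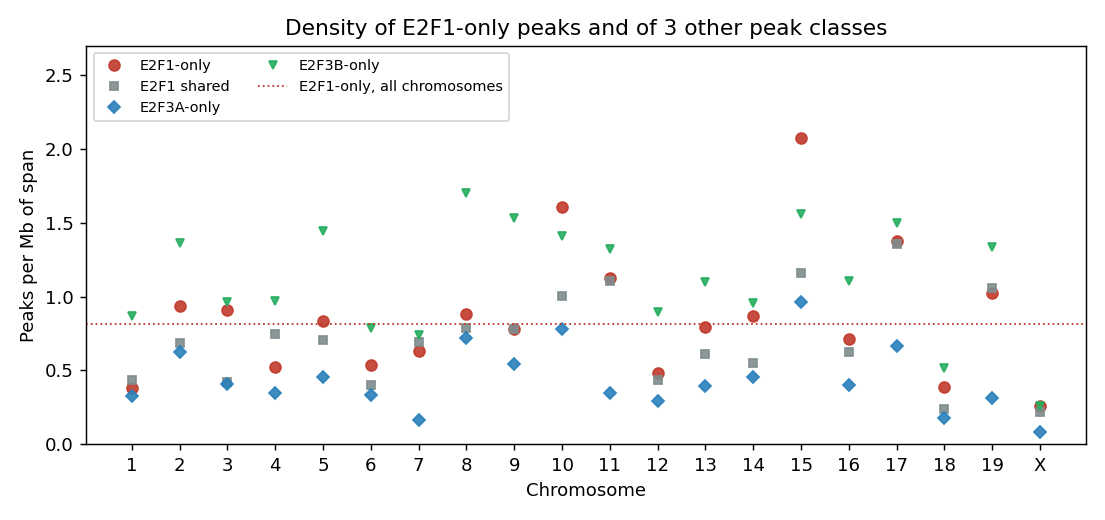
Peaks per Mb (vertical axis) on each chromosome (horizontal axis) for E2F1-only, shared E2F1, E2F3A-only and E2F3B-only peaks, with the E2F1-only density over all chromosomes as a dotted line at 0.818. E2F1-only peaks stand highest on chromosomes 15 and 10, at 2.07 and 1.61 per Mb, and lowest on X.

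Chromosomes 10 and 15 together held 19.7% of the E2F1-only peaks (411, interval 18.1 to 21.5). The same chromosomes held 14.3% of the shared E2F1 peaks (12.7 to 16.0), 12.0% of the E2F3B-only peaks (10.9 to 13.3) and 17.7% of the E2F3A-only peaks (15.6 to 20.1). The E2F1-only interval did not meet those of the shared and E2F3B-only peaks, and it overlapped that of the E2F3A-only peaks. These chromosomes were pooled because E2F1-only peaks were densest there in these same data. The intervals therefore describe the lists and are not a test. On chromosome 15 there were 1.33 E2F1-only peaks for each E2F3B-only peak and on chromosome 10 there were 1.14, against 0.748 over all chromosomes and 0.440 on chromosome 1.

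Across the 20 chromosomes, E2F1-only density rose with that of the other classes, which have no peak in common with it. Pearson's r was 0.812 with shared E2F1 peaks, 0.847 with E2F3A-only and 0.720 with E2F3B-only peaks, and Spearman's rho was 0.771, 0.740 and 0.753 in the same order. Without chromosomes 10 and 15, which lay farthest from the median, r was 0.853, 0.686 and 0.778. The points share the span, gene content and base composition of their chromosome, so these values only describe the lists.

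The share of a chromosome's E2F1 peaks that were E2F1-only ranged from 41.2% (interval 34.5 to 48.3) on chromosome 4 to 68.1% (61.5 to 74.1) on chromosome 3. Besides chromosome 3, the interval lay above the 55.0% of the whole list on chromosome 15, at 64.1% (58.7 to 69.1), and on chromosome 10, at 61.6% (56.3 to 66.7). Besides chromosome 4, it lay below on chromosome 1, at 46.8% (39.1 to 54.6), and on chromosome 7, at 47.7% (40.9 to 54.7). On the other 14 chromosomes the interval contained the value of the whole list. When each list was limited to its 50% widest peaks, the intervals of chromosomes 3 (50.7 to 71.2), 10 (49.999 to 65.6), 15 (47.2 to 61.8) and 4 (36.9 to 55.7) contained the list's 52.5%, and those of chromosomes 1 and 7 met the list's value under several criteria of sharing. Chromosome 3 had an E2F1-only density near that of the genome (141 peaks, or 0.907 per Mb) and few shared peaks (66, or 0.424 per Mb). A high share and a high density therefore did not mark the same chromosomes throughout, and chromosome 17, dense in both classes, had a share of 50.4% (44.3 to 56.5).

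In the narrower 50% of the E2F1 list, below 605 bp, 71.5% of the peaks were E2F1-only, and the share per chromosome ran from 55.6% on chromosome 4 to 85.9% on chromosome 15, with 80.6% on chromosome 3 and 76.2% on chromosome 10. In the wider 50%, where 38.6% were E2F1-only, it was 28.8% on chromosome 4, 45.4% on chromosome 15, 49.4% on chromosome 3 and 44.0% on chromosome 10. Chromosome 17 had the lowest share in the wider peaks, 27.2%, and 73.2% in the narrower ones. The median width of E2F1-only peaks varied little between chromosomes, from 540 bp on X to 583.5 bp on chromosome 9.

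**Figure D3:**
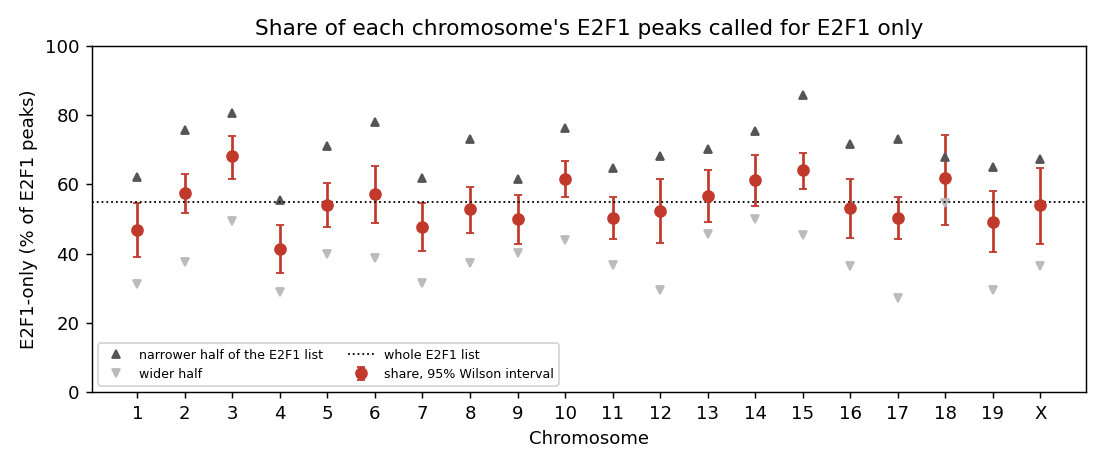
Percent of each chromosome's E2F1 peaks that were E2F1-only (vertical axis), with 95% Wilson intervals, for each chromosome (horizontal axis); triangles give the narrower and wider 50% of the E2F1 list and the dotted line the whole list at 55.0%. Chromosomes 3, 10 and 15 lie above the line with their intervals, and 1, 4 and 7 below it.

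Within a chromosome the E2F1-only peaks were spread over most of its length. In bins of 5 Mb, 20 of the 21 bins of chromosome 15 held at least 1, with a median of 8 and a highest count of 25. All 26 bins of chromosome 10 held at least 1, with a median of 7 and a highest count of 19. On X, 20 of 33 bins held any, with a median of 1. In bins of 1 Mb, 1231 of 2563 bins (48.0%) held an E2F1-only peak, and 728 of these held exactly 1. Only 31 bins held 5 or more, with 183 peaks or 8.79% of the set, and 9 of the 31 were on chromosome 15 and 6 on chromosome 10.

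The 5 fullest bins of 5 Mb differed in how many peaks of the other classes they held. They were chosen after their counts were seen. The 5 Mb of chromosome 15 from 75000001 to 80000000 held 25 E2F1-only, 26 shared E2F1, 24 E2F3B-only and 9 E2F3A-only peaks. The bin of chromosome 10 from 75000001 to 80000000 was alike, with 16, 23, 26 and 5 peaks in that order. The bin of chromosome 11 from 115000001 to 120000000 held 17 E2F1-only, 10 shared, 15 E2F3B-only and 2 E2F3A-only peaks. The bin of chromosome 10 from 95000001 to 100000000 held 19 E2F1-only peaks and 2 shared ones, with 12 E2F3B-only and 6 E2F3A-only peaks. The bin of chromosome 15 from 55000001 to 60000000 held 19 E2F1-only and 5 shared peaks, with 9 E2F3B-only and 5 E2F3A-only peaks.

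Reading the E2F1 list from one end of a chromosome to the other, E2F1-only peaks came in 872 unbroken runs, of which 395 were single peaks. Runs of 5 or more numbered 102 and held 715 E2F1-only peaks (34.3%). The 13 runs of 10 or more included 4 on chromosome 15, 3 on chromosome 10 and 2 on chromosome 17. They spanned from 2.08 to 20.7 Mb. Over all runs the mean length was 2.39 peaks. Since E2F1-only peaks make up 55.0% of the E2F1 list, runs of them arise in any order of that list. Run lengths of shared peaks are not given here, so the runs are not read as a trait of the E2F1-only peaks.

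The longest run, on chromosome 15 from 9656565 to 25432756, had 20 E2F1-only peaks over 15.8 Mb with widths from 388 to 1237 bp. The same stretch held 13 E2F3A and 14 E2F3B peaks, none of which can overlap an E2F1 peak by the definition of a run. The run on chromosome 2 from 53750720 to 66243693 had 14 peaks over 12.5 Mb, with 5 E2F3A and 9 E2F3B peaks between them. The run on chromosome 16 from 64133528 to 84835834 was the longest in bases, with 12 peaks over 20.7 Mb (0.580 per Mb) beside 4 E2F3A and 15 E2F3B peaks. In the first 2 of these runs the E2F1-only density was 1.27 and 1.12 per Mb.

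The other 2 named runs were compact. On chromosome 15 from 55848409 to 57925066, 12 E2F1-only peaks lay within 2.08 Mb (5.78 per Mb), where the E2F3A and E2F3B lists had 1 peak each. Their widths ran from 431 to 1256 bp with a median of 615.5 bp. On chromosome 10 from 95463347 to 98384978, 13 E2F1-only peaks lay within 2.92 Mb (4.45 per Mb), beside 4 E2F3A and 5 E2F3B peaks. These had a median width of 525 bp and none was above 723 bp. Chromosomes 15 and 10 as a whole had 2.07 and 1.61 per Mb. The runs were chosen by their counts and are bounded by their own members. Their densities are therefore not on a par with those of whole chromosomes.

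E2F1-only peaks lay farther from each other than shared E2F1 peaks did, although they were the larger set. The median gap from an E2F1-only peak to the next nearest one was 271 kb (interval 251 to 298), with quartiles at 97.8 and 688 kb. The corresponding median was 180 kb (158 to 192) among shared E2F1 peaks, 174 kb (161 to 184) among E2F3B-only peaks and 647 kb (574 to 704) among the less numerous E2F3A-only peaks. Another E2F1-only peak lay within 100 kb of 25.5% of them (23.6 to 27.4), and the share among shared peaks was 36.8% (34.6 to 39.1). Within 1 Mb the shares were 83.6% (82.0 to 85.1) and 84.3% (82.5 to 85.9), which overlap. To the nearest shared E2F1 peak the median gap was 387 kb (345 to 420).

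Tight clusters were rare. Joining E2F1-only peaks with gaps of at most 10 kb left 1982 of the 2082 alone and gave 49 clusters with 100 peaks (4.80%, interval 3.96 to 5.81), 47 of them pairs and 2 of them triplets. Among shared E2F1 peaks 6.51% (5.43 to 7.78) had another within 10 kb, and among E2F3B-only peaks 9.20% (8.18 to 10.3). At 1 kb the shares were 1.25% (0.854 to 1.82) for E2F1-only and 3.23% (2.49 to 4.18) for shared peaks. Chromosome 10 held 8 of the 49 clusters and chromosome 15, the densest, held 2. In 7 of the clusters an E2F3A or E2F3B peak lay within 10 kb of a member.

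The triplets each enclosed a peak of an E2F3 list, which by the rule none of their members overlapped. On chromosome 8 from 73987147 to 73993125, E2F1-only peaks of 723, 503 and 419 bp followed each other with gaps of 322 and 4012 bp, and an E2F3B peak lay 299 bp from the nearest of them. On chromosome 11 from 70460261 to 70469993, peaks of 447, 540 and 682 bp had gaps of 6344 and 1720 bp, with an E2F3A peak 0.368 kb from the nearest and the closest E2F3B peak at 12.7 kb.

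The pairs that the naming rule gave all lay on chromosome 2 within 1 Mb of each other. All 47 pairs tied in size, and ties were broken by chromosome and start. The named pairs are thus the first in that order, and their shared location reflects the naming rule. That from 118291135 to 118298179 had peaks of 467 and 435 bp with 125 kb to the nearest E2F3B peak. The pair from 118866761 to 118873685 had peaks of 525 and 602 bp, with an E2F3A peak at 6.12 kb and a shared E2F1 peak at 5.60 kb. The pair from 119033858 to 119038446 had peaks of 1070 and 330 bp, 50.9 kb from E2F3B.

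**Figure D4:**
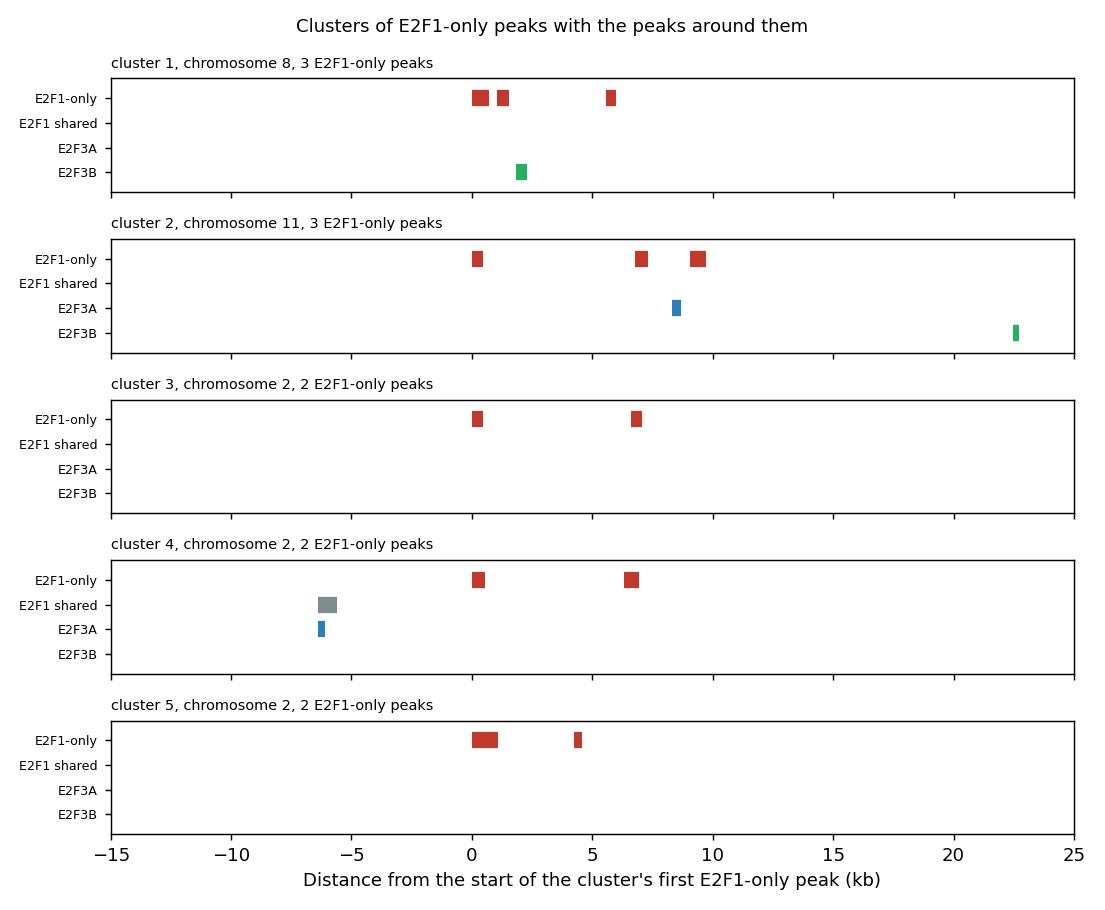
Peaks around the 5 named clusters, by distance in kb from the start of the first E2F1-only peak (horizontal axis), with 1 row each for E2F1-only, shared E2F1, E2F3A and E2F3B peaks; bars are drawn to scale in length. The triplets on chromosomes 8 and 11 hold an E2F3B and an E2F3A peak between their members, and 2 of the 3 pairs on chromosome 2 have no other peak within 15 kb.

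E2F3B peaks lay closer to E2F1-only peaks than E2F3A peaks did, and the E2F3B list was also the longer, with 4704 against 1998 peaks. The median gap to the nearest E2F3B peak was 126 kb (interval 113 to 138) and that to E2F3A 309 kb (287 to 333). For 1522 of the 2082 E2F1-only peaks (73.1%) the nearer E2F3 peak was of the E2F3B list, for 559 it was of the E2F3A list, and for 1 the gaps were equal. To the nearer of the E2F3 lists the median gap was 99.1 kb (89.2 to 107.0), with quartiles at 30.5 and 261 kb. The nearest E2F3 peak was itself one that overlapped an E2F1 peak in 567 cases (27.2%) and one without E2F1 in 1515. The share of all E2F3 peaks that overlap an E2F1 peak is not given here. These counts are therefore not read as a trait of the E2F1-only peaks.

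The rule leaves out E2F1 peaks that overlap an E2F3 peak, and few E2F1-only peaks had one close by. Within 10 kb there was one for 236 (11.3%, interval 10.0 to 12.8), within 1 kb for 77 (3.70%, 2.97 to 4.60) and within 100 bp for 12 (0.576%, 0.330 to 1.00). Of the 236, 160 had only E2F3B within 10 kb, 37 only E2F3A and 39 both. Within 100 kb the share was 50.1% (48.0 to 52.3). In the reverse direction, an E2F1 peak lay within 10 kb of 10.1% (9.06 to 11.3) of the E2F3B-only peaks. For E2F1-only peaks the share with E2F3B in that distance was 9.56% (8.37 to 10.9). Of the E2F3A-only peaks, 5.64% (4.42 to 7.16) had an E2F1 peak within 10 kb. At the other end, 85 E2F1-only peaks (4.08%) were more than 1 Mb from any E2F3 peak, and 35 (1.68%) were more than 1 Mb from any other peak of the 3 lists.

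**Figure D5:**
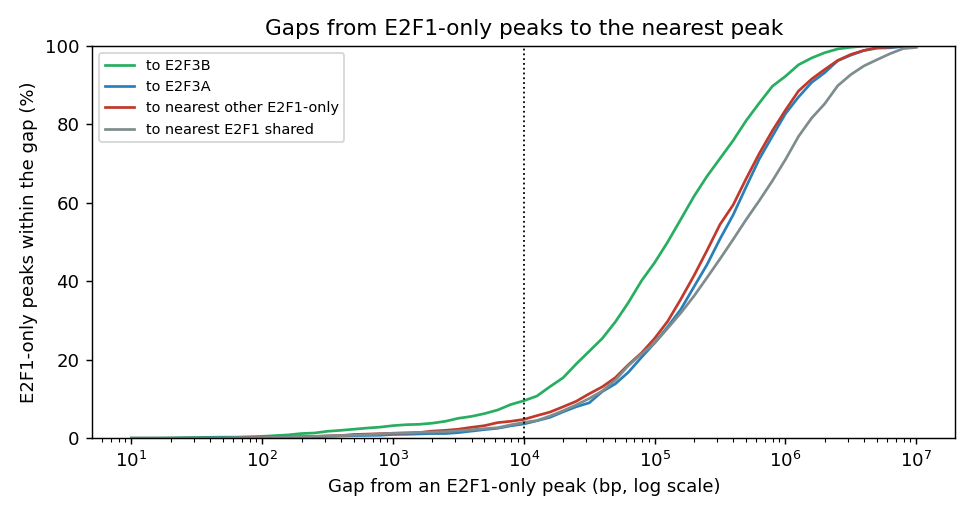
Cumulative percent of E2F1-only peaks (vertical axis) with a peak of the named kind within a given gap in bp (horizontal axis, log scale); the dotted line marks 10 kb. At that gap the E2F3B curve stands at 9.56%, that of other E2F1-only peaks at 4.80%, that of shared E2F1 peaks at 4.03% and that of E2F3A at 3.65%.

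Wider E2F1-only peaks lay nearer to E2F3 peaks. The E2F1-only peaks were divided by width into 4 groups of like size. In the widest group (641 to 2011 bp, 514 peaks) the median gap to the nearer isoform was 68.3 kb (58.6 to 80.6), and 16.3% (13.4 to 19.8) had an E2F3 peak within 10 kb. In the other groups the medians were 110 kb (96.0 to 128), 113 kb (96.6 to 126) and 106 kb (80.9 to 128) from narrow to wide, and the shares within 10 kb were 9.54% (7.31 to 12.4), 7.98% (5.96 to 10.6) and 11.6% (9.11 to 14.6). The interval of the widest group's median gap, which ended at 80.55 kb, lay below those of the other 3 groups, of which the nearest began at 80.88 kb. Its share within 10 kb had an interval that met the next one's. The 77 E2F1-only peaks within 1 kb of an E2F3 peak were 632 bp wide at the median, against 545 bp for the 85 beyond 1 Mb.

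At the limit of the rule, peaks on both sides came close to it. Just outside an overlap, the E2F1-only peak on chromosome 3 from 96500078 to 96500602 (525 bp) was 1 bp from an E2F3B peak and that on chromosome 5 from 34064499 to 34065071 (573 bp) was 17 bp from one. Gaps of 21 bp were found for the chromosome 6 peak given among the widest and for the peak on chromosome 15 from 59479530 to 59480457 (928 bp), which had E2F3B at 21 bp and E2F3A at 96 bp. The peak on chromosome 11 from 116533179 to 116533772 (594 bp) was 28 bp from E2F3B. Just inside, a 601 bp E2F1 peak on chromosome 9 from 56923506 to 56924106 overlapped E2F3B by 12 bp and a 590 bp one on chromosome 7 from 134591906 to 134592495 overlapped E2F3A by 17 bp. The next overlaps were 33 bp with E2F3A on chromosome 4 from 126754467 to 126754792 (326 bp), 48 bp with E2F3B on chromosome 2 from 25079997 to 25080837 (841 bp) and 51 bp with E2F3B on chromosome 3 from 65331891 to 65332409 (519 bp).

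The most isolated E2F1-only peaks after the one on chromosome 9 were mostly on X. The peak from 86995337 to 86995810 on X (474 bp) was 3.88 Mb from any other peak, that from 42451918 to 42452358 (441 bp) was 2.89 Mb away and that from 106209006 to 106209452 (447 bp) was 2.83 Mb away. On chromosome 1 the peak from 126357815 to 126358346 (532 bp) had its nearest neighbour, an E2F3A peak, at 2.67 Mb. These 4 were narrower than the median E2F1-only peak of 567 bp.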

How the data were processed

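Peak lists of 3 ChIP-seq libraries were used, 1 each for cells overexpressing E2F1, E2F3A or E2F3B, grouped by the genotype label. Bowtie2, SAMtools and the genome build mm9 are listed in the submitters' processing notes, without versions, and the deposited peak names carry the name of the caller MACS. No source used here gives its version, threshold, control or filters, which decide how many peaks a list holds. The deposited files give the start and end of each peak per sample, with no score or count. Starts were taken as counted from 0, and 1 was added for printing.

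The 2082 E2F1-only peaks, the naming rule and the measures were chosen with earlier results of these data known. Named are the 5 widest, narrowest and most isolated peaks, the 5 nearest to the overlap limit on either side, the 5 largest clusters and the 5 longest runs, ties by chromosome and start. Regions on chromosome 18 were counted and not named. Gaps are bases between peak edges. Density uses the span from the lowest to the highest peak position of any list on a chromosome. Shares have Wilson intervals and medians exact binomial order-statistic intervals, at 95%. Overlap, gap and cluster counts were tested on simulated data. The gene and promoter tables at hand are of GRCm38 and were not used with mm9 positions. Python 3.11.15, numpy 2.4.6, pandas 2.3.3, scipy 1.17.1 and matplotlib 3.10.9 were used.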

Additional observations from a re-analysis of the deposited data

How the results depend on the processing

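No E2F1-only peak can leave the set with 50% reciprocal overlap or with centres within 100 bp as the criterion of sharing. At these peak widths both criteria require an overlap, and they added 562 and 671 peaks. Counting peaks within 500 bp as shared removed 55. Setting every peak to 600 bp around its centre removed 14 and added 3. With the 50% widest peaks of each list, which shortens the lists themselves, the count of 2082 became 996. It was 3089 when only the E2F3A list defined the set, and within 1.5 times of 2082 there and under the other alternatives. The E2F1-only share of the E2F1 list, 55.0%, was 69.8% with reciprocal overlap, 72.7% with centres and 81.6% with the E2F3A list alone. With the widest peaks this share was 52.5%. The median width was 590 bp with reciprocal overlap, 588 bp with centres, 700 bp with the widest peaks and 587 bp when only the E2F3A list defined the set. The share within 10 kb of another E2F1-only peak was 6.81%, 7.01% and 7.58% with reciprocal overlap, centres and the E2F3A list alone. The share within 10 kb of an E2F3 peak depends on the criterion by construction, since looser sets include overlapping peaks: it was 30.2% with reciprocal overlap, 32.9% with centres, 40.2% with the E2F3A list alone, 13.8% with the E2F3B list alone, 8.93% within 500 bp and 9.24% with the widest peaks. The median gap to E2F3B moved likewise, from 126 kb to 69.5 kb with reciprocal overlap, 62.8 kb with centres and 41.2 kb with the E2F3A list alone, and that between E2F1-only peaks from 271 kb to 152 kb with the E2F3A list alone, 457 kb with the widest peaks and 318 kb without chromosomes 10 and 15. The median gap to E2F3A went from 309 kb to 464 kb with the widest peaks and lay between 251 and 340 kb under the other alternatives. The share on chromosome 15 was 8.71% with the E2F3A list alone and between its interval's bounds under the other alternatives run. Leaving out the first 4 Mb of chromosomes, or chromosomes 10 and 15 (chosen after seeing the data), left the number, the width and both shares within 10 kb inside their intervals or within 1.5 times. Whether a chromosome's interval of the E2F1-only share lay off the value of the whole list depended on the setting. With the widest peaks, of these 6 chromosomes only chromosome 1 kept it. Chromosome 10 also lost it with centres (72.2 to 81.2, list 72.7%) and chromosome 15 with the E2F3A list alone (78.8 to 87.0, list 81.6%). Chromosomes 1 and 7 lost it with reciprocal overlap, with centres, with the E2F3A list alone and without chromosomes 10 and 15, and chromosome 7 also within 500 bp. Of the 23 named single peaks, 10 changed class under at least 1 alternative. These were the peaks named for lying nearest to the overlap limit on either side, so their number reflects the naming rule. No paired analysis was possible because replicates are lacking, with 1 library per protein. Missing scores and depth limit what an E2F1-only call shows.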
